A study of Homo sapiens with 8 samples.

Results

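This account sets the regions occupied by RNA polymerase II against the regions carrying histone H3 monomethylated at lysine 4 (H3K4me1) in unstimulated T47D-MTVL cells, and describes each H3K4me1 region by the polymerase regions it holds. The members are the 73263 regions of the H3K4me1 list and the 31113 regions of the polymerase list, 104376 of the 224932 regions in the 8 lists of the series. All were taken except the 15 polymerase regions on chromosome M. The cells are a derivative of T47D, an established hormone-responsive line of human luminal breast carcinoma, with a stably integrated reporter under the progestin-responsive promoter of mouse mammary tumour virus. For both libraries the cells had 0 nM of the progestin R5020 and 0 min of treatment, after 48 h of growth on charcoal-treated serum followed by 1 day serum free. They were fixed with 1% formaldehyde for 10 min before chromatin immunoprecipitation and sequencing (ChIP-seq). Each target has 1 library, so differences could not be set against a spread between replicates, and no p-values are given. Intervals are 95% intervals over the regions of 1 library. They cover counting error only.

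H3K4me1 is laid down mainly by the methyltransferases KMT2C and KMT2D, and marks enhancers, the flanks of active promoters and parts of transcribed genes. At an active promoter, trimethylation (H3K4me3) replaces it around the start site, so that H3K4me1 often forms shoulders on either side. RNA polymerase II is found paused just after start sites, along transcribed genes, and at active enhancers, where it makes short-lived enhancer RNAs. An H3K4me1 region without polymerase is commonly read as a primed or inactive enhancer in the field, but the lists here do not show activity.

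The lists hold positions on build hg19 and no peak height. The H3K4me1 regions had a median width of 2124 bp (quartiles 1420 and 3512 bp) and covered 231.7 Mb, and the polymerase regions had a median width of 482 bp (quartiles 320 and 768 bp) and covered 19.4 Mb. Gene positions on hg19 were not used here, so regions are named by their coordinates, and the luminal identity of the cells was not checked against marker genes. How deeply each library was sequenced is unknown, and a region missing from a list is not shown to be free of the mark or of polymerase.

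Most H3K4me1 regions held no polymerase, and the few that held several contained much of it. Of the 73263 regions, 60920 (83.2%, 82.9 to 83.4%) overlapped no polymerase region by 1 bp or more. The other 12343 made up 16.8% of the list. Among them, 7927 (10.8%, 10.6 to 11.05%) held 1 polymerase region, 2457 (3.35%, 3.22 to 3.49%) held 2, where 6.03% held 2 or more, and 1959 (2.67%, 2.56 to 2.79%) held 3 or more. Seen from the polymerase, 22611 of 31113 regions (72.7%, 72.2 to 73.2%) overlapped H3K4me1, and 74.4% of all polymerase bases lay in it. The H3K4me1 regions that held 3 or more contained 10256 of the 23097 overlapping pairs (44.4%) on 11.1% of the H3K4me1 bases. The 199 regions with 10 or more polymerase regions, 0.272% of the list, accounted for 12.9% of the pairs. Both groups were set by the number held, so their share of pairs exceeds their share of regions by construction.

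**Figure D1:**
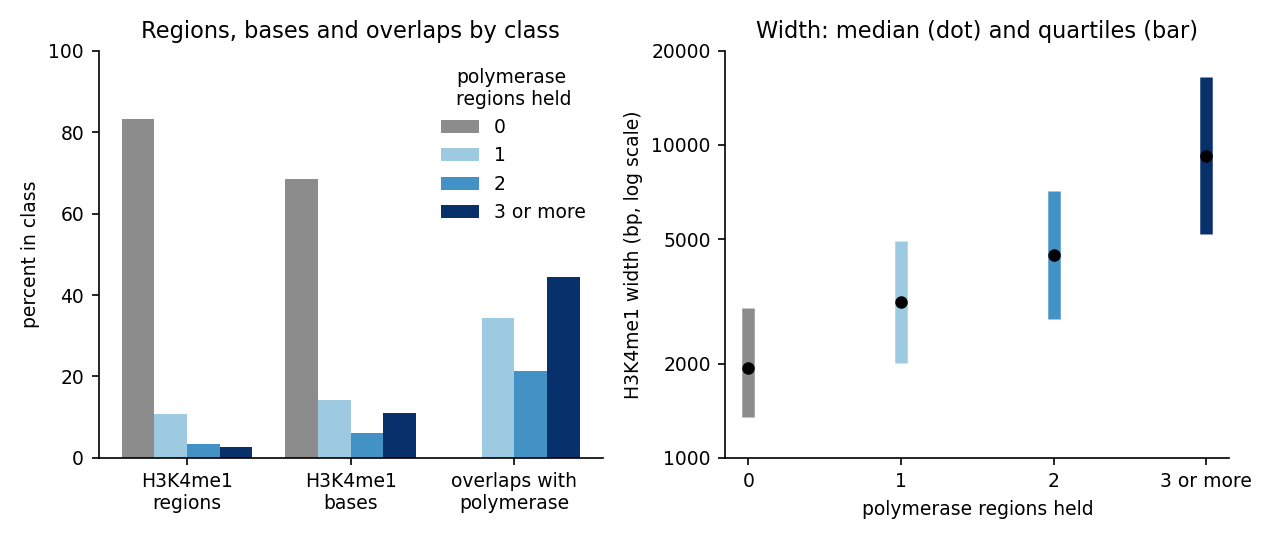
Left, percent of H3K4me1 regions, of H3K4me1 bases and of overlaps with polymerase in each class of H3K4me1 region by polymerase regions held. Right, H3K4me1 width in bp on a log scale, with medians as dots and quartiles as bars. The class holding 3 or more is 2.67% of the regions and 44.4% of the overlaps, and its median width is 9212 bp against 1932 bp for regions holding none. Classes are set by the number held, so a share of overlaps above the share of regions follows from the rule.

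H3K4me1 regions with polymerase were wider. The median width was 1932 bp (1921 to 1942 bp; quartiles 1351 and 3022 bp) for those holding none, 3153 bp (3083 to 3209 bp) for those holding 1, 4450 bp (4327 to 4568 bp) for those holding 2 and 9212 bp (8845 to 9671 bp) for those holding 3 or more. The quartiles of the last class were 5210.5 and 16523.5 bp, both above the upper quartile of the regions with none. A wide region meets more polymerase by its length alone, so the number was also taken per length. It rose as well: 0.373 polymerase regions per 10 kb (0.315 to 0.438) in H3K4me1 regions under 1 kb, 0.574 (0.552 to 0.597) from 1 to 2 kb, 0.857 (0.838 to 0.876) from 2 to 5 kb, 1.08 (1.06 to 1.11) from 5 to 10 kb and 1.63 (1.59 to 1.67) at 10 kb or more. Each interval lies above that of the next narrower band.

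The share of regions with any polymerase followed the same order. It was 3.07% (2.59 to 3.61%) under 1 kb, 7.22% from 1 to 2 kb, 19.05% from 2 to 5 kb, 38.7% from 5 to 10 kb and 63.2% (61.3 to 65.03%) at 10 kb or more. Width alone did not assign a region to a class. Of the 2643 regions of 10 kb or more, 973 held no polymerase, 449 held 1, 314 held 2 and 907 held 3 or more. At the other end, 1 region under 1 kb and 32 from 1 to 2 kb held 3 or more.

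**Figure D2:**
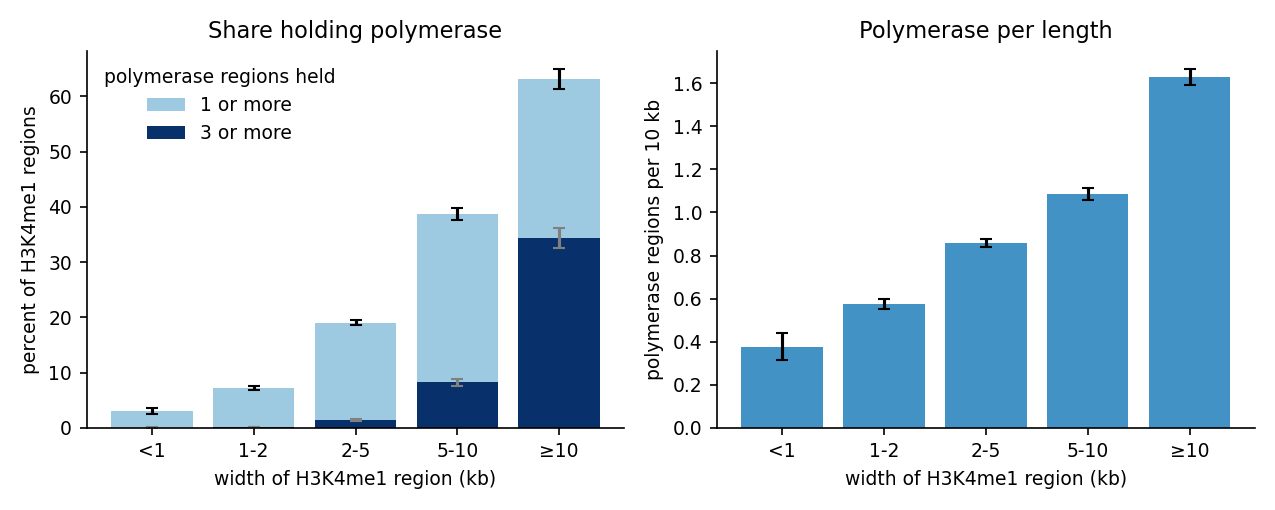
Left, percent of H3K4me1 regions that hold 1 or more and 3 or more polymerase regions, by width in kb. Right, polymerase regions per 10 kb of H3K4me1. Error bars are exact 95% intervals of counting error, and both measures rise with width, from 3.07 to 63.2% and from 0.373 to 1.63 per 10 kb.

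How many polymerase regions an H3K4me1 region held depended on how finely polymerase had been divided. In H3K4me1 regions that held 2, the gap between them had a median of 169 bp (149 to 189 bp; quartiles 50 and 733 bp), and 53.1% of the gaps were at most 200 bp. Where 3 or more were held, the median of 8297 gaps was 284 bp, with quartiles of 66 and 1071 bp. When polymerase regions within 500 bp of each other were joined, 21955 of the 31113 remained. The shares of H3K4me1 regions then became 13.8% for 1, 1.95% for 2 and 1.07% for 3 or more, with the 83.2% for none unchanged by construction. Their median widths were 3349, 6897.5 and 16497.5 bp, so the order of widths was the same and the steps were larger. With the wider 50% of polymerase regions alone, 1.54% held 2 and 1.11% held 3 or more, and among the wider 50% of H3K4me1 regions 5.82% and 5.23% did. Per length, joined polymerase gave 0.350 per 10 kb under 1 kb and 0.940 at 10 kb or more, a flatter rise than the 0.373 to 1.63 of the list as deposited.

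Pairs of polymerase regions were closer together where both overlapped H3K4me3. Both polymerase regions overlapped H3K4me3 in 1085 of the 2457 H3K4me1 regions that held 2 (44.2%, 42.2 to 46.1%), 1 did in 676 and none did in 696. In the first kind the median gap was 79 bp, against 538 bp where 1 overlapped H3K4me3 and 386 bp where none did. Of the 1085, 749 pairs (69.0%, 66.2 to 71.8%) lay under the same H3K4me3 region. H3K4me3 regions had a median width of 634 bp, and the gap within such a pair cannot exceed the width of its H3K4me3 region. The midpoints of a pair lay on opposite sides of the centre of the H3K4me1 region in 33.0% (30.2 to 35.9%) of the 1085 pairs and in 51.4% (48.7 to 54.1%) of the other 1372. A short gap leaves less room for the centre between midpoints, and its part in this difference was not tested.

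Polymerase lay towards the middle of H3K4me1 regions. For 21643 polymerase regions the midpoint was inside an H3K4me1 region, at a median of 1071 bp from its centre (quartiles 447.5 and 2794.25 bp) and 1691.5 bp from its nearest edge. Position was also expressed relative to width, with 0 at the centre and 1 at either edge, where even spacing gives a median of 0.5 and puts 20% in each 20% of the way. The median was 0.393, with 26.3% (25.7 to 26.9%) in the central 20% and 12.98% (12.5 to 13.4%) in the outer 20%. H3K4me1 regions that held 1 polymerase had it a median of 573 bp from the centre and 990.5 bp from the edge, with 28.8% (27.8 to 29.9%) in the central 20%. Those holding 2 had 27.2% there and those holding 3 or more 24.1% (23.3 to 24.97%), the closest of the 3 classes to the even 20%. Midpoints of the H3K4me3 list and of progesterone receptor (PR) sites at 60 min of R5020 were measured the same way. Over all widths together they had 29.1% (28.3 to 29.8%) and 26.5% (25.7 to 27.3%) in the central 20%, no less than polymerase. In the outer 20% they had 9.21% and 9.93%. Widths were not alike, with median H3K4me1 widths of 4214, 4325 and 6219 bp for H3K4me3, PR and polymerase. From 1 to 2 kb, PR had 28.6% in the central 20% against 20.8% for polymerase. In every other width band the central share of PR was below that of polymerase, with overlapping intervals. That of H3K4me3 was above polymerase in every band but 10 kb or more.

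In H3K4me1 regions of 1 to 2 kb, polymerase with and without H3K4me3 differed in position. In the narrowest regions, under 1 kb, 38.9% (29.7 to 48.7%) of 108 midpoints were in the central 20% and 8.33% (3.88 to 15.2%) in the outer 20%. From 1 to 2 kb the spread was close to even, with 20.8% of 1929 midpoints in the central 20%. Where such a region held 1 polymerase region that overlapped H3K4me3 (879 cases), the midpoint was a median of 466.5 bp from the centre and 264.5 bp from the edge, and 13.99% (11.8 to 16.5%) were in the central 20% against 28.1% (25.2 to 31.2%) in the outer 20%. Where the polymerase did not overlap H3K4me3 (538 cases), the medians were 253.75 bp from the centre and 492.5 bp from the edge, with 31.8% (27.9 to 35.9%) in the central 20% and 5.58% (3.79 to 7.86%) in the outer 20%. The 2 kinds had H3K4me1 regions of similar width, with medians of 1579 and 1503.5 bp. In H3K4me1 regions of 2 to 5 kb that held 1, polymerase with H3K4me3 was central too, with 33.9% (32.1 to 35.8%) in the central 20%, yet 15.7% stayed in the outer 20% against 8.47% of polymerase without H3K4me3. From 5 to 10 kb, again holding 1, the central shares were 29.8% and 28.8%, and their intervals overlapped.

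**Figure D3:**
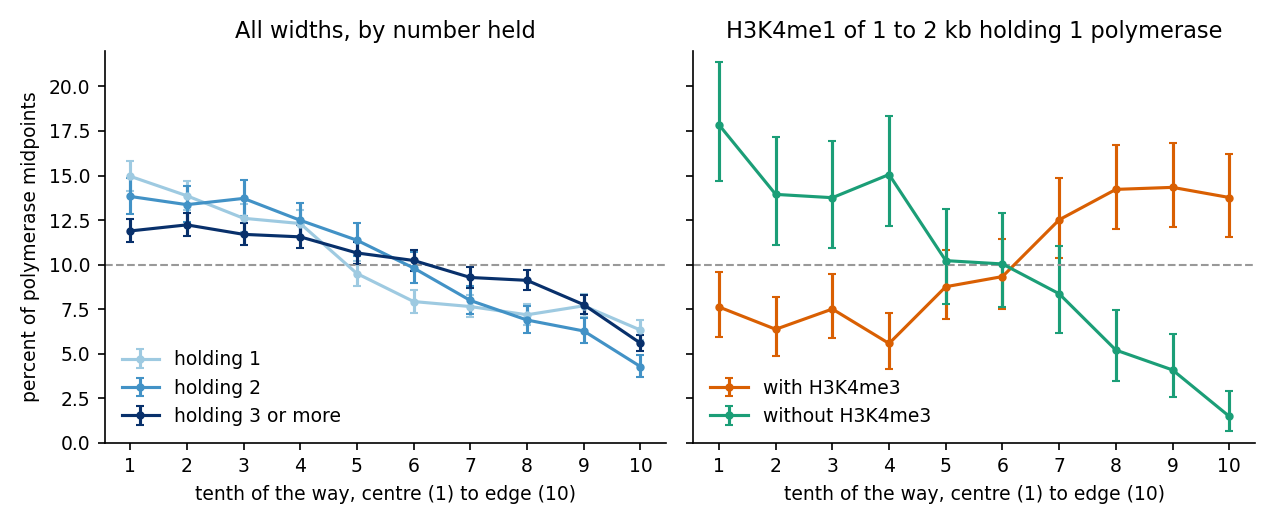
Percent of polymerase midpoints in each of 10 equal steps from the centre (1) to the edge (10) of the H3K4me1 region, with exact 95% intervals of counting error. The dashed line is the even share of 10%. On the left, all 3 classes fall towards the edge. On the right, in H3K4me1 regions of 1 to 2 kb holding 1 polymerase region, polymerase with H3K4me3 rises from 7.62% in the first step to 13.8% in the last, and polymerase without H3K4me3 falls from 17.8% to 1.49%.

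The same contrast was present in base pairs. In H3K4me1 regions of 2 to 5 kb, polymerase with H3K4me3 had 0.339 midpoints per 10 kb (0.310 to 0.370) in the first 250 bp inside an edge, 0.279 (0.252 to 0.307) in the next 250 bp and 0.916 (0.853 to 0.982) from 1500 to 2000 bp. Density was thus lowest just inside the rim, by a narrow margin, and highest in the interior. From 1 to 2 kb the first pair of bins had 0.331 (0.302 to 0.361) and 0.224 (0.200 to 0.249), a clearer step. From 5 to 10 kb they had 0.271 (0.220 to 0.330) and 0.288 (0.235 to 0.348), with no such step. Polymerase without H3K4me3 had 0.0991 (0.0836 to 0.117) in the first 250 bp, 0.291 in the next and 0.463 (0.418 to 0.510) from 1500 to 2000 bp, with no rise at the rim. PR sites at 60 min had 0.211 (0.188 to 0.236) in the first 250 bp, 0.363 in the next and 0.734 from 1500 to 2000 bp, and H3K4me3 midpoints had 0.237, 0.627 and 1.47. In both the first bin was the lowest. Polymerase that crossed an H3K4me1 edge had H3K4me3 more often: 1678 of 2175 regions lying across 1 edge (77.2%, 75.3 to 78.9%) and 431 of the 486 that joined 2 H3K4me1 regions (88.7%, 85.5 to 91.4%) overlapped H3K4me3. Of the 19948 wholly inside, 45.0% (44.4 to 45.7%) did, and the share over all polymerase regions was 45.8%. Polymerase across an edge was also wider, at a median of 660 bp against 500 bp wholly inside, and a wider region meets an edge and an H3K4me3 region more easily. The part of width in this difference was not tested.

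**Figure D4:**
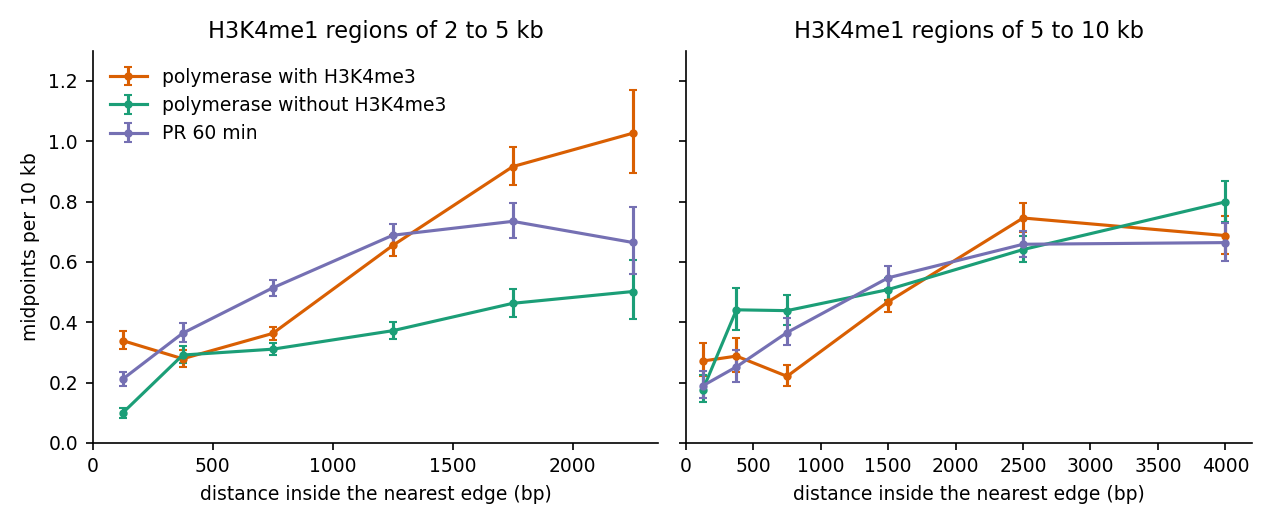
Midpoints per 10 kb of available H3K4me1 sequence, against the distance in bp inside the nearest edge, for H3K4me1 regions of 2 to 5 kb (left) and 5 to 10 kb (right). Points stand at the middle of each distance bin, with exact 95% Poisson intervals. On the left, polymerase with H3K4me3 goes from 0.339 at the edge down to 0.279 and up to 1.03, and polymerase without H3K4me3 and PR rise from 0.0991 and 0.211 without that dip.

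Polymerase outside H3K4me1 was narrower and, over all chromosomes together, carried H3K4me3 less often. The 8502 outside regions had a median width of 400 bp (394 to 406 bp), against 522 bp (516 to 528 bp) for the 22611 that overlapped H3K4me1, and 6.69% of them were 1000 bp or wider against 17.5%. H3K4me3 was present at 37.0% (36.0 to 38.1%) and 49.1% (48.4 to 49.7%). The share of polymerase in H3K4me1 went from 63.1% (62.1 to 64.2%) in the narrowest of 4 groups of polymerase regions by width to 84.3% (83.5 to 85.1%) in the widest. In the narrowest group it was 73.5% with H3K4me3 and 59.2% without, and in the widest 85.7% and 81.8%.

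Outside regions were more often over 10 kb from H3K4me1 than within 1000 bp of it, and few were between 2 H3K4me1 regions. The nearest H3K4me1 edge was a median of 5380 bp away (quartiles 1207 and 22856 bp). It was over 10 kb away for 37.8% (36.8 to 38.9%), with 54.6% of those with H3K4me3 and 28.0% of those without. H3K4me1 lay within 1000 bp of 22.6% (21.7 to 23.5%). Within 1000 bp, 1668 (19.6%, 18.8 to 20.5%) had H3K4me1 on 1 side and 255 (2.999%, 2.65 to 3.38%) on both. For polymerase with H3K4me3 the share with H3K4me1 on both sides was 5.08% (4.34 to 5.91%), and for polymerase without it 1.77% (1.44 to 2.17%). Short gaps of up to 2000 bp between neighbouring H3K4me1 regions numbered 22408. They had 0.377 midpoints per 10 kb (0.345 to 0.410) of polymerase with H3K4me3, against 0.446 (0.438 to 0.455) over the whole of H3K4me1 regions. Polymerase without H3K4me3 had 0.122 (0.105 to 0.142) in these gaps and 0.488 over the whole regions. These are not at like distance from an edge, since such a gap has no base over 1000 bp from one. In the first 1000 bp inside an edge, polymerase with H3K4me3 had 0.314, 0.253, 0.254 and 0.374 by steps of 250 bp. Polymerase without it had 0.100, 0.291, 0.330 and 0.344 there. The longer gaps had 0.0125 of polymerase with H3K4me3 and 0.0200 of polymerase without.

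From the other side, H3K4me1 regions that held no polymerase were mostly far from any. Their nearest polymerase region was a median of 43067.5 bp away (quartiles 12930.5 and 131412 bp), 3.05% had one within 1000 bp, and 30.7% (30.4 to 31.1%) had none within 100 kb.

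The H3K4me1 list was uneven between chromosomes, and polymerase was outside it more often where it was sparse. On chromosomes 2, 4, 13, 18 and X the list had from 3.83 (X) to 8.88 (chromosome 2) regions per Mb, against 15.03 to 59.3 on the other 18. Polymerase regions on the sparse 5 overlapped H3K4me1 in 42.5% (40.7 to 44.3%) of cases, and on the rest in 75.8% (75.3 to 76.3%). For polymerase with H3K4me3 the shares were 41.8% (39.6 to 44.1%) and 83.3% (82.6 to 84.0%), and for polymerase without H3K4me3 43.5% (40.6 to 46.5%) and 69.96% (69.2 to 70.7%). On the sparse 5 the intervals of polymerase with and without H3K4me3 overlapped, and on the rest they did not. These 5 chromosomes had 1693 of the 8502 outside regions, 1082 of the 3149 with H3K4me3 and 611 of the 5353 without. Outside polymerase with H3K4me3 had a median distance to H3K4me1 of 15973 bp over all chromosomes and 7719 bp without the sparse ones. The share of H3K4me1 regions holding polymerase hardly differed, at 17.4% (16.4 to 18.4%) and 16.8% (16.5 to 17.1%). These 2 shares are not at like width. Median H3K4me1 widths by chromosome were 1627 to 1806 bp on the sparse 5 and 1911 to 2776.5 bp on the rest. Whether DNA copy number or sequencing depth has a part in the density of the list was not tested.

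**Figure D5:**
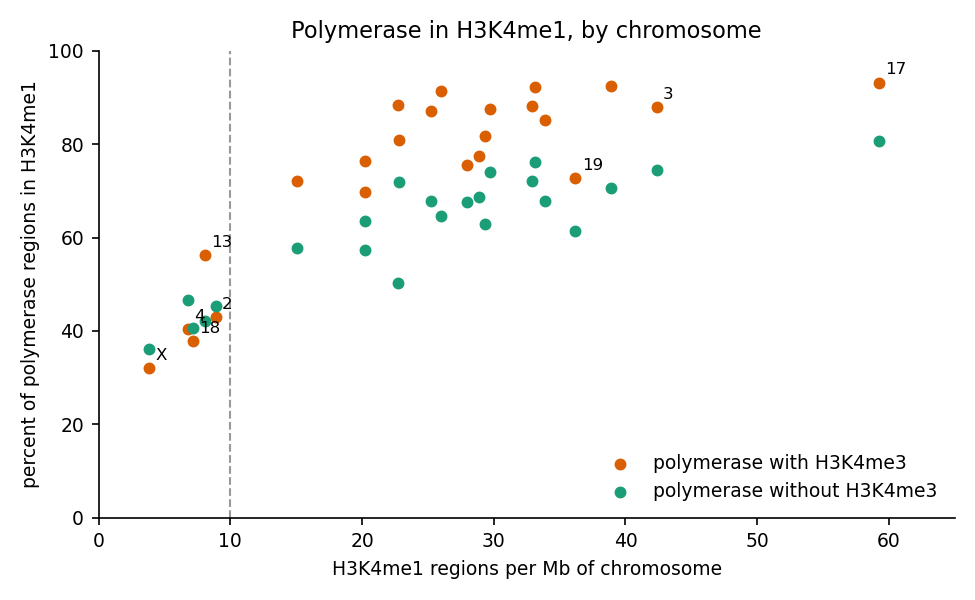
Percent of polymerase regions that overlap H3K4me1, against H3K4me1 regions per Mb, with 1 pair of points for each of 23 chromosomes. Numbers name some chromosomes beside their point for polymerase with H3K4me3, and the dashed line is at 10 regions per Mb. The 5 chromosomes left of the line lie between 32.0 and 56.2% for polymerase with H3K4me3, and the other 18 between 69.7 and 93.2%.

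Chromosome by chromosome, the share of H3K4me1 regions with polymerase ran from 11.5% (10.9 to 12.2%) on chromosome 3, where the list is dense, to 40.9% (38.8 to 43.0%) on chromosome 19. Chromosome 22 followed with 26.3% (23.6 to 29.0%) and chromosome 16 with 21.7%. Per length, chromosome 19 had 2.07 polymerase regions per 10 kb of H3K4me1 and chromosome 21 had 0.689. Chromosome 19 also had 32.9 polymerase regions per Mb, below only the 35.6 of chromosome 17. As background, chromosomes 19, 17 and 22 are rich in genes.

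H3K4me3 separated the classes far more than PR did. Of all H3K4me1 regions 16.0% overlapped H3K4me3. The share was 5.27% (5.09 to 5.45%) in regions without polymerase, 65.7% (64.7 to 66.8%) with 1 polymerase region, 72.1% (70.3 to 73.8%) with 2 and 77.0% (75.1 to 78.9%) with 3 or more. The step from none to 1 was there at each width: from 1.298% to 45.0% under 1 kb, 3.4% to 65.8% from 1 to 2 kb, 7.07% to 69.6% from 2 to 5 kb, 9.01% to 61.0% from 5 to 10 kb and 14.8% to 52.8% at 10 kb or more. The further steps up to 3 or more did not hold at each width. With H3K4me1 regions split by width into 5 groups of equal size that were weighted equally, the shares for 1, 2 and 3 or more were 65.1%, 69.6% and 68.4%, but only 3 and 16 regions of the last class were in the 2 narrowest groups. In H3K4me1 regions of 10 kb or more the share did rise with the number held, from 52.8% (48.0 to 57.5%) for 1 to 83.1% (80.5 to 85.5%) for 3 or more. This band has no upper limit, so width was not held equal within it. The part of width in that rise was not tested.

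The single polymerase regions themselves went the other way. Of the polymerase in H3K4me1 regions that held 1, 64.1% (63.0 to 65.2%) overlapped H3K4me3, of that in regions holding 2, 57.8% (56.4 to 59.2%), and of that in regions holding 3 or more, 34.4% (33.5 to 35.3%). These shares pool polymerase over H3K4me1 regions, so those that held most weigh most. Altogether 3853 H3K4me1 regions (5.26% of the list) held polymerase and no H3K4me3, 8490 (11.6%) held both, 3210 (4.38%) held H3K4me3 alone and 57710 (78.8%) held neither. The first 2 kinds were of like width, with medians of 3783 and 3902.5 bp, against 2648 and 1899 bp for the others.

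PR, the hormone-activated receptor whose sites the series maps over time, was listed in more of the H3K4me1 regions with polymerase, for the most part in step with width. At 60 min of 10 nM R5020, 12.2% of all H3K4me1 regions overlapped a PR site. By class the share was 10.4% (10.1 to 10.6%) for none, 17.0% (16.2 to 17.9%) for 1, 21.2% (19.6 to 22.9%) for 2 and 37.8% (35.7 to 40.0%) for 3 or more. Weighting the 5 width groups equally brought these to 11.4%, 13.4%, 12.2% and 14.6%. Here too only 3 and 16 regions of the last class were in the 2 narrowest groups. In regions of 2 to 5 kb the shares were 13.2%, 14.1%, 15.7% and 17.2% (13.7 to 21.2%). At 10 kb or more they stood further apart, at 33.0% (30.0 to 36.0%), 45.7%, 45.9% and 54.6% (51.3 to 57.9%). That band has no upper limit, and the part of width in these differences was not tested. At 5, 30 and 360 min the classes had the same order, from 10.5% to 35.4%, from 10.9% to 37.1% and from 9.58% to 37.0%, where the whole list had 12.1%, 12.6% and 11.3%. Before hormone, 0.495% of H3K4me1 regions overlapped a PR site, with 0.322% (0.278 to 0.370%) of those without polymerase and 3.57% (2.80 to 4.49%) of those holding 3 or more, where it was 70 regions. With the 5 width groups weighted equally these became 0.382% and 0.841%, with 0.906% for those holding 1 and 0.498% for those holding 2.

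Within the width bands from 1 to 10 kb, H3K4me1 regions with polymerase and no H3K4me3 had PR more often. In H3K4me1 regions of 2 to 5 kb, PR at 60 min was in 19.98% (18.1 to 21.99%) of the 1647 that held polymerase and no H3K4me3, in 12.4% (11.4 to 13.5%) of the 3929 with both, in 9.13% (7.80 to 10.6%) of those with H3K4me3 alone and in 13.5% (13.1 to 13.98%) of those with neither. From 1 to 2 kb the 4 shares were 10.9%, 5.70%, 4.19% and 6.07%, and from 5 to 10 kb 35.0%, 24.2%, 22.8% and 23.6%. At 10 kb or more they were 52.5%, 49.8%, 37.5% and 32.2%, and the intervals of the first 2 overlapped. Median widths in that band were 13751, 15578, 13396 and 12626 bp in the same order. From 2 to 5 kb they were 3220, 3264, 2942 and 2809 bp, so widths were not equal within a band. Per length, the regions with polymerase and no H3K4me3 had 0.762 PR sites per 10 kb (0.690 to 0.839) from 2 to 5 kb. At 10 kb or more they had 0.776 (0.713 to 0.843). Those with both had 0.425 and 0.586, and those with neither 0.534 (0.516 to 0.552) and 0.358 (0.325 to 0.393).

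Within H3K4me1 regions with polymerase, PR midpoints (46.9% of all PR midpoints were in H3K4me1) lay on a polymerase region in 28.1% (26.0 to 30.3%) of cases where 1 was held, 36.9% (33.5 to 40.4%) where 2 were and 47.4% (45.0 to 49.9%) where 3 or more were. Polymerase covered 13.8%, 19.4% and 27.9% of the bases of these classes. The median distance from a PR midpoint to polymerase was 591, 228.5 and 28.25 bp. From the side of polymerase, 6.85% of all its regions overlapped a PR site of 60 min, with 8.39% (8.04 to 8.76%) of those in H3K4me1 and 2.73% (2.39 to 3.10%) of those outside.

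At PR sites of 60 min the series also has reads of MNase-digested DNA, which mark nucleosomes, without and with R5020. Their ratio, unstimulated over R5020, had a median of 1.41 (1.40 to 1.42) in the authors' deposited table at the 7538 PR sites in H3K4me1 regions without polymerase. It was 1.45 (1.42 to 1.49), 1.48 (1.43 to 1.55) and 1.56 (1.52 to 1.59) in the authors' deposited table at PR sites that lay off polymerase in H3K4me1 regions holding 1, 2 and 3 or more. At the 1927 sites on polymerase in H3K4me1 regions the authors' deposited table gave 2.06 (2.02 to 2.10), and at 249 on polymerase outside H3K4me1 1.78 (1.70 to 1.94). The 12398 PR sites with neither H3K4me1 nor polymerase, 50.7% of all, had the lowest median in the authors' deposited table, 1.14 (1.13 to 1.15). The ratio was thus higher in H3K4me1 without polymerase than outside both, and higher again at sites on polymerase, inside H3K4me1 or outside it. The sites counted here are not the same set as the PR midpoints above. Those midpoints numbered 1769, 777 and 1626 in H3K4me1 regions holding 1, 2 and 3 or more. In the authors' deposited table the median normalized unstimulated read number was 115 in H3K4me1 regions without polymerase and 135 on polymerase in H3K4me1. It was 115 off polymerase in H3K4me1 regions holding any, 86 on polymerase outside H3K4me1 and 82 with neither, in the authors' deposited table. The part of this read number in these ratios was not tested.

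The regions that held the most polymerase were named by number, with ties by width. The first lay at chr16:85365139-85797385. It is 432246 bp wide, against 111037 bp for the next widest in the list, and held 169 polymerase regions (3.91 per 10 kb), 61 H3K4me3 regions and 52 PR sites of 60 min. It also held 11 of the 844 PR sites listed before hormone. Only 38 of its 169 polymerase regions overlapped H3K4me3, and joining polymerase within 500 bp left 65. The second, at chr3:184006429-184117466, held 50 polymerase and 15 H3K4me3 regions, with 2 PR sites before hormone and 1 at 60 min. The third, at chr17:39878114-39943081, held 36 with 3 H3K4me3 regions, at 5.54 per 10 kb. Next came chr10:80977823-81056732 and chr3:183877222-183926570, each with 32, and chr17:55930657-56039007 with 30 and as many as 20 PR sites. The densest of the 10, at 6.48 per 10 kb, was the chromosome 3 region with 32. The remaining 4 held 23 to 26 polymerase regions, at chr17:40677347-40732830, chr1:204039525-204079721 and chr1:156654452-156706099, and chr8:144999172-145039164. Of the 10 regions, 3 are on chromosome 17 and 2 each on chromosomes 1 and 3. Leaving out the chromosome 16 region changed the density at 10 kb or more from 1.63 to 1.61 per 10 kb.

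The widest regions with little or no polymerase lay elsewhere. The 3 widest that held none were chr4:49272128-49338977, chr4:49092831-49158798 and chr21:10771505-10829550, 66849, 65967 and 58045 bp wide. As background, all 3 are near centromeres, and how reads were aligned there is unknown. They had no PR site at 60 min, and the first had 2 H3K4me3 regions. The 3 widest holding 1 were all on the distal long arm of chromosome 3, at chr3:194822745-194883585, chr3:184461247-184515264 and chr3:195470728-195520703. Their polymerase regions were 284, 258 and 668 bp wide, lay 9228, 17596.5 and 2445.5 bp from the centre and did not overlap H3K4me3, although each H3K4me1 region held 2 H3K4me3 regions. These H3K4me1 regions held 2, 1 and 1 PR sites before hormone and 1, 0 and 0 at 60 min.

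The 3 widest holding 2 showed both spacings. At chr10:80882259-80930080 the polymerase regions were 555 and 813 bp wide and ran from 80916876 to 80917431 and from 80917438 to 80918251, side by side without H3K4me3. At chr14:100026110-100070642 one of 1260 bp lay 2741 bp from the centre without H3K4me3, and one of 251 bp with H3K4me3 lay 159.5 bp from the edge. This H3K4me1 region also held 9 PR sites of 60 min. At chr9:139546636-139598748 the polymerase regions of 552 and 291 bp lay 6479 and 9106.5 bp from the centre, and the second overlapped H3K4me3.

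The 3 widest polymerase regions inside H3K4me1 were at chr17:80036996-80048529 (11533 bp), at chr16:85667985-85678510 (10525 bp, within the widest H3K4me1 region) and at chr11:67201068-67210757 (9689 bp). The first lay in an H3K4me1 region of 40572 bp that held 22 in all, and did not overlap H3K4me3. The third overlapped H3K4me3 and took up most of an H3K4me1 region of 13621 bp. Outside H3K4me1 the 3 widest were at chr11:71713927-71718464 (4537 bp), chr19:5695317-5699081 (3764 bp) and chr19:11031237-11034810 (3573 bp). None of the 3 overlapped H3K4me3. The second of them ended 3 bp from an H3K4me1 region, so that its place outside rests on those bases, and the other two were 2935 and 2636 bp away.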

How the data were processed

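Chromatin immunoprecipitation libraries of H3K4me1 and RNA polymerase II from unstimulated T47D-MTVL cells were compared, with 1 sample per group. The authors deposited 1 list of regions per sample, with no peak score; the build is hg19 per the submitters' processing notes. For the aligner, peak caller, thresholds, input and depth, nothing is given in the sources used here. Normalized MNase read numbers of the authors at PR sites, a score of unstated scaling, and their ratio were taken as deposited. A polymerase region was held by an H3K4me1 region where they overlapped by 1 bp or more, and its position was that of its midpoint. Width is end minus start. Shares have exact Clopper-Pearson, rates exact Poisson and medians order-statistic intervals. Chromosome lengths were taken as the last base listed. Counting was tested on simulated regions, where it recovered 100% of 12000 planted counts. Named regions were the 3 widest holding 0, 1 and 2, the 10 holding most, and the 3 widest polymerase regions inside and outside. Members, classes and rules were chosen with earlier results of these data known. Sequences were not printed, since no genome of this build was used here. Scripts ran under Python 3.11.15 with SciPy 1.17.1 for intervals, pandas 2.3.3 and NumPy 2.4.6 for tables, and Matplotlib 3.10.9 for plots.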

Additional observations from a re-analysis of the deposited data

How the results depend on the processing

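With 1 library per target there is no replicate to leave out, and no peak height or read number by which to apply a stricter threshold. No paired analysis was possible because each group has 1 sample. In all alternatives run, the median width rose from regions holding 1 to 2 to 3 or more, and the number per 10 kb rose with width. The joined polymerase list for densities and for H3K4me3 and PR, the removal of sparse chromosomes and the removal of the widest region were chosen after seeing the data. The cause of the shifts below was not tested.

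Shares holding 0, 1, 2 and 3 or more, against 83.2, 10.8, 3.35 and 2.67%, were 84.3, 10.2, 3.05 and 2.49% with 50% of the polymerase region inside, or with its midpoint inside, 85.8, 9.09, 2.80 and 2.33% with it wholly inside, 88.6, 8.76, 1.54 and 1.11% with the wider 50% of polymerase regions and 73.3, 15.6, 5.82 and 5.23% in the wider 50% of H3K4me1 regions. Joining H3K4me1 regions within 500 bp gave 82.6% for 0, 3.6% for 2 and 3.24% for 3 or more. Joining polymerase within 500 bp gave 13.8, 1.95 and 1.07% for 1, 2 and 3 or more. Without the 5 sparse chromosomes 10.6% held 1.

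Median widths for 1, 2 and 3 or more were 3293.5, 4759.5 and 9734 bp with 50% inside, 3292, 4759.5 and 9734 bp with the midpoint inside, 3556, 5065 and 10353 bp wholly inside, and 3349, 6897.5 and 16497.5 bp with joined polymerase. For 0, 1, 2 and 3 or more they were 1985, 3594, 5949.5 and 14051.5 bp with the wider polymerase regions, and 1985, 3636.5, 5324.5 and 12256 bp with joined H3K4me1. For 0, 1 and 2 they were 3240, 3987.5 and 4946 bp in the wider H3K4me1 regions. Without the sparse chromosomes they were 1962 bp for 0 and 3289 bp for 1.

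Densities per 10 kb from the narrowest band up were 0.272, 0.447, 0.787 and 1.05, to 10 kb, by midpoint, and 0.131, 0.308, 0.468, 0.595 and 0.934 with the wider polymerase regions. Joined polymerase gave 0.4995, 0.673, 0.760 and 0.940 from 1 kb up.

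The central 20% held 28.8% in H3K4me1 regions holding 1, 27.2% with joined H3K4me1 and 27.2% with the wider polymerase regions. Median distances to centre and edge were 573 and 990.5 bp for regions holding 1, 1348.25 and 2019.5 bp where H3K4me1 was at least 4 times as wide as the polymerase, 1510.75 and 2384.75 bp with joined H3K4me1 and 1096.25 and 1824 bp with the wider polymerase regions. Outside polymerase had H3K4me1 on 1 side in 12.7% and on both in 1.42% within 500 bp, and in 26.2% and 6.20% within 2 kb.

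H3K4me3 shares were 68.0, 67.7 and 80.9% for 1, 2 and 3 or more with joined polymerase, 64.6% for 1 with an overlap of 100 bp, and 5.64, 69.6 and 68.4% for 0, 2 and 3 or more with 5 width groups weighted equally. PR shares at 60 min were 28.6 and 50.3% for 2 and 3 or more with joined polymerase, and 11.4, 13.4, 12.2 and 14.6% for the 4 classes with these groups.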

Other observations

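The H3K4me1 list is not in genomic order, and what orders it is not given. When the list was divided into 10 equal parts, the first had a median width of 8286 bp, and 53.6% (52.4 to 54.7%) of its regions held polymerase. In the last the median width was 1016 bp and 3.28% (2.88 to 3.71%) did. The share fell at each step between. Among regions of 2 to 5 kb, 25.9% (25.2 to 26.6%) of those earlier in the list and 12.2% (11.7 to 12.7%) of those later held polymerase, and 27.0% and 11.3% overlapped H3K4me3. Their median widths also differed, at 3494 and 2479 bp. At under 1 kb, where the widths were 908 and 896.5 bp, 3.62% (2.89 to 4.47%) and 2.52% (1.91 to 3.25%) held polymerase, and these intervals overlapped. H3K4me3 overlapped 3.49% (2.77 to 4.33%) and 1.81% (1.301 to 2.45%) of them, and these intervals did not overlap.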
